A study of Mus musculus with 131 samples.

Results

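The 4 Hox clusters of the mouse genome were read as CpG methylation in 3 bisulfite libraries, 1 per cell kind. Methylation is given for tiles of 200 bp, here called windows, and a window entered when at least 1 CpG cytosine was covered in all 3 libraries. In mm10 coordinates the clusters were chromosome 6, 52155000 to 52261000 (HoxA), chromosome 11, 96194000 to 96369000 (HoxB), chromosome 15, 102921000 to 103037000 (HoxC) and chromosome 2, 74668000 to 74765000 (HoxD). They held 1807 of the 7638465 windows shared by the 3 libraries: 417 in HoxA, 634 in HoxB, 385 in HoxC and 371 in HoxD. The 100 kb on each side of every cluster served as control and held 2850 shared windows. All 3 kinds of cell came from the C57BL/6J strain. The MEF library came from wild-type mouse embryonic fibroblasts at passage 2. The Gjb2 35delG ESC library came from embryonic stem cells with the homozygous 35delG deletion in the connexin gene Gjb2, at passage 7. The Actin-RFP ESC library came from embryonic stem cells of the line Actin-RFP2, which carry an Actin-RFP transgene, at passage 10. Cell type, genotype, line and passage therefore cannot be told apart between these libraries, and no comparison between them has a replicate check.

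Hox genes encode homeodomain transcription factors that give cells their identity along the head-to-tail axis. Each cluster holds its genes in the order of their expression along that axis, from the anterior paralogues at the 3′ end of the cluster to the posterior paralogues at the 5′ end. In embryonic stem cells the clusters are known as broad domains of Polycomb-marked chromatin with little DNA methylation, and fibroblasts are known to keep the Hox expression of the body site they came from. The clusters also hold microRNA genes of the miR-10, miR-196 and miR-615 families and the long noncoding RNAs Hotair and Hotairm1, and Hottip starts next to Hoxa13.

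The mature microRNAs made from inside the clusters are shown because the windows around their genes are described below. The capitals mark the seed, bases 2 to 8, and the sequences are those of RefSeq for GRCm38.p6, the assembly of mm10.
mmu-miR-10b-5p: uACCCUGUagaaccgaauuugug
mmu-miR-196b-5p: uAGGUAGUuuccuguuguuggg
mmu-miR-196a-5p: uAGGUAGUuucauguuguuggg
mmu-miR-10a-5p: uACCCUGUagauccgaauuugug
The pair miR-10a and miR-10b share 1 seed, and the pair miR-196a and miR-196b share another. The miR-196a sequence is made by both Mir196a-1 in HoxB and Mir196a-2 in HoxC.

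The bases before the start of 5 Hox genes are shown. Hoxa7, Hoxd4 and Hoxd11 had the highest or lowest promoter of their cluster in at least 1 library, and Hoxd1 and Hoxd12 were chosen, after their values were seen, for their difference between Gjb2 35delG ESC and MEF. Each runs 5′ to 3′ over the 250 bases before the start of the gene in the RefSeq table, with the CpG sites, where methylation can be measured, in capitals.
Hoxd1 chr2:74762730-74762979 (+): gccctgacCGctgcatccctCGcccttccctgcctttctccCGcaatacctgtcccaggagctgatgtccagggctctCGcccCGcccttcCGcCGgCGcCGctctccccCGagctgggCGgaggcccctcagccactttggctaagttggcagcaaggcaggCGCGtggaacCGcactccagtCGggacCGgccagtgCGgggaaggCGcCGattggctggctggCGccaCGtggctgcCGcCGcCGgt
Hoxd4 chr2:74721728-74721977 (+): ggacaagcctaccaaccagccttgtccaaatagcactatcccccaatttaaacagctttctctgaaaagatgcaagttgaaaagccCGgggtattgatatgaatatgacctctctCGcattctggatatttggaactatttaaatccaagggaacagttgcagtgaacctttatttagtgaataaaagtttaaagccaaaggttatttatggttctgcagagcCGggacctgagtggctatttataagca
Hoxd12 chr2:74674763-74675012 (+): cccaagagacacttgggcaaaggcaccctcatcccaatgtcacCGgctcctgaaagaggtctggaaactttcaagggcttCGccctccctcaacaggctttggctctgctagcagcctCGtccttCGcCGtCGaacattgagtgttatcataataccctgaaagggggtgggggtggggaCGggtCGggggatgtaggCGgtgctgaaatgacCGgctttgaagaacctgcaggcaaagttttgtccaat
Hoxa7 chr6:52218574-52218823 (-): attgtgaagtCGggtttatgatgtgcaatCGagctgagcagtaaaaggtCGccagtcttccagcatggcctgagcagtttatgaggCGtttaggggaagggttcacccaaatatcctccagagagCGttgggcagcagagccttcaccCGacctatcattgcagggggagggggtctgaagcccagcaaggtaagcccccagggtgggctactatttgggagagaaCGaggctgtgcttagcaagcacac
Hoxd11 chr2:74679308-74679557 (+): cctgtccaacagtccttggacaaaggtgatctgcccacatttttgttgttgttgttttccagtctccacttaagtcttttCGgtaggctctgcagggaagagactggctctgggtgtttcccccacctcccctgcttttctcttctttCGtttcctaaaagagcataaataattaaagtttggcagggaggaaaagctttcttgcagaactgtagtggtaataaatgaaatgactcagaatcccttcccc
Hoxd11 chr2:74682073-74682322 (+): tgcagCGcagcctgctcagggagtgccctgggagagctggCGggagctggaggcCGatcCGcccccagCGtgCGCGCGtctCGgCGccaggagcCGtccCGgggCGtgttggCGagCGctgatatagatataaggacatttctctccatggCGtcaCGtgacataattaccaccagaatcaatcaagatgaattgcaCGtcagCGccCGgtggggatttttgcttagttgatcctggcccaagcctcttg
The Hoxd1 stretch held 24 CpG sites, the Hoxd4 stretch 3, the Hoxd12 stretch 10 and the Hoxa7 stretch 7. No shared window lay inside the 300 bases of the table that hold the Hoxd1 stretch. The 2 starts listed for Hoxd11 differed in CpG content, with 2 sites before the first and 20 before the second. Over the 24 promoters of 22 Hox genes in the table, each 300 bases long, the median was 14.5 CpG sites, and 17 (70.8%) held 10 or more. Over all 32851 promoters of the table the median was 7.0 sites, and 43.5% held 10 or more.

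The libraries held 316759867 (MEF), 287946900 (Gjb2 35delG ESC) and 319285707 (Actin-RFP ESC) methylation calls. Inside the clusters the median window had 45, 43 and 57 calls, in that order of libraries. The average over all shared windows came to 79.1% in MEF, 67.6% in Gjb2 35delG ESC and 38.5% in Actin-RFP ESC. The promoters of Pou5f1, Nanog, Zfp42 and Tdgf1, 4 markers of pluripotent cells, lay at 41.8 to 70.7% in MEF and at 1.73 to 5.19% in the ESC libraries. The Esrrb promoter lay at 39.02%, 52.7% and 28.6%, so this marker was not lower in Gjb2 35delG ESC than in MEF. The remaining gene of the 6 pluripotency markers had no value. Of 6 fibroblast markers, 3 had a value, with medians of 5.89%, 11.8% and 10.7%, and none differed by 30 points between MEF and an ESC library.

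The clusters were weakly methylated in all 3 libraries, and the library order differed from that of the genome. Cluster windows averaged 29.8% in MEF, 35.1% in Gjb2 35delG ESC and 21.4% in Actin-RFP ESC, with SDs over windows of 26.01, 26.6 and 17.1 points. In the flanks it was 66.3%, 59.2% and 34.9%. MEF thus had the highest level of the 3 libraries in the flanks and in the genome, whereas Gjb2 35delG ESC had the highest in the clusters. The distance between cluster and flanks was 36.5 points in MEF, 24.1 in Gjb2 35delG ESC and 13.6 in Actin-RFP ESC. As a ratio of means, Actin-RFP ESC stood at 0.608 of Gjb2 35delG ESC in the clusters, 0.590 in the flanks and 0.569 over all shared windows. Gjb2 35delG ESC stood at 1.18 of MEF in the clusters, 0.893 in the flanks and 0.855 over all shared windows.

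HoxC had the lowest level in MEF and the widest gap to Gjb2 35delG ESC. Its windows averaged 18.8% in MEF, 30.2% in Gjb2 35delG ESC and 18.6% in Actin-RFP ESC. Counted over all calls rather than windows, the HoxC level was 15.1% (14.7 to 15.6%) in MEF, 23.1% (22.5 to 23.6%) in Gjb2 35delG ESC and 13.3% (12.9 to 13.7%) in Actin-RFP ESC. The ranges are 95% Wilson intervals, which cover counting error and no difference between cultures. HoxA had mean window levels of 23.6%, 29.6% and 18.7% in the same order, and 18.3% (17.9 to 18.7%), 22.2% (21.8 to 22.7%) and 12.3% (11.9 to 12.6%) over all calls. HoxD had 30.7%, 34.97% and 20.4% over windows, and 26.1% (25.5 to 26.7%), 29.2% (28.6 to 29.7%) and 15.3% (14.9 to 15.7%) over all calls. HoxB, the highest cluster in each library, had 39.98%, 41.7% and 25.2% over windows, and 32.7% (32.2 to 33.2%), 33.8% (33.3 to 34.3%) and 19.6% (19.3 to 19.98%) over all calls. Gjb2 35delG ESC lay above MEF by 11.4 points in HoxC, 5.99 in HoxA, 4.28 in HoxD and 1.76 in HoxB. In the 215 HoxB windows with an equal number of covered cytosines in all 3 libraries that difference was -0.6 points, so its direction in HoxB depended on which windows were counted. Actin-RFP ESC lay below Gjb2 35delG ESC by 10.8 to 16.5 points in the 4 clusters. Against MEF it was -14.7 points in HoxB, -10.2 in HoxD, -4.85 in HoxA and -0.1896 in HoxC.

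Windows were counted as different between 2 libraries at 30 points or more, a fixed size that is not a test. Of the 1807 windows, 243 (13.4%) were at least 30 points higher in Gjb2 35delG ESC than in MEF, against 2.58% of all shared windows, and 81 (4.48%) were at least 30 points lower, against 14.4%. In the flanks 8.11% were higher and 14.8% lower. The share that was higher reached 18.96% in HoxC, 13.7% in HoxA, 12.4% in HoxD and 10.6% in HoxB. These shares depend on how many windows had room to move, because a window above 70% in MEF cannot rise by 30 points and one below 30% cannot fall by 30. Among windows at or below 70% in MEF, 15.2% of 1595 were higher in the clusters, 20.02% of 1154 in the flanks and 11.7% of 1690151 in the genome. Among windows at or above 30% in MEF, 11.4% were lower in the clusters, 17.9% in the flanks and 14.9% in the genome. Most of the distance between the clusters and the genome in the first pair of shares was thus absent once windows with room to rise were compared.

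**Figure D1:**
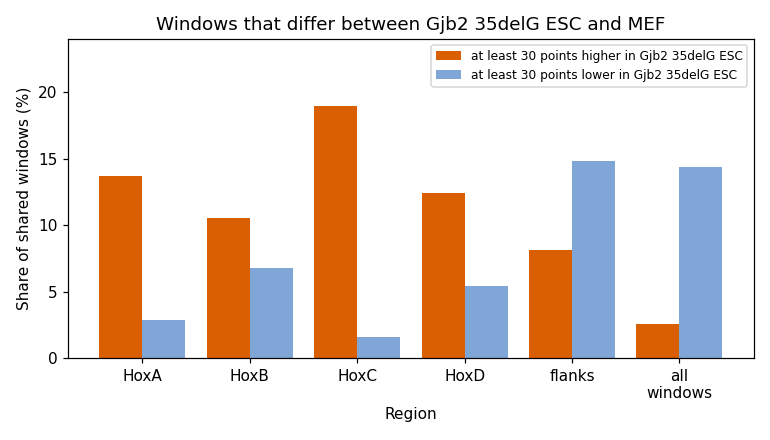
Share of shared windows (vertical axis, percent) at least 30 points higher (orange) or lower (blue) in Gjb2 35delG ESC than in MEF, for each Hox cluster, the 100 kb flanks and all shared windows. The orange bar is the taller of the pair in each cluster, from 10.6% in HoxB to 18.96% in HoxC, and the blue bar is the taller in the flanks and the genome.

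Actin-RFP ESC had the lowest mean level in the clusters too, with smaller shares of lower windows there than in the flanks or over all shared windows. Of the 1807 windows, 266 (14.7%) were at least 30 points lower than in MEF, against 71.3% of all shared windows, and 306 (16.9%) were lower than in Gjb2 35delG ESC, against 48.4%. In the flanks these shares were 57.3% and 37.5%. Higher windows numbered 39 against MEF and 3 against Gjb2 35delG ESC, with 0.279% and 0.143% of all shared windows on the same rule. Among windows at or above 30% in the library compared with, 37.5% of cluster windows were lower than in MEF, against 68.9% in the flanks and 73.9% in the genome. For Gjb2 35delG ESC the same shares were 33.01%, 43.8% and 51.6%. HoxB and HoxC stood at the ends of the first comparison, with 48.8% of 338 such windows and 15.7% of 83 such windows lower in Actin-RFP ESC than in MEF. This limit does not make the room to fall equal, because a window near 30% must lose nearly all its methylation to count. The ratio of mean levels to Gjb2 35delG ESC was 0.608 in the clusters, 0.590 in the flanks and 0.569 in the genome. To MEF it was 0.717, 0.527 and 0.486. Across the 1807 windows the Pearson correlation was 0.818 between the 2 ESC libraries, 0.659 between Gjb2 35delG ESC and MEF, and 0.603 between Actin-RFP ESC and MEF. These describe windows of single libraries that share CpG content and position, and windows are not replicates.

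CpG-rich windows were the lowest in each library. Over the 4 clusters together Gjb2 35delG ESC lay furthest above MEF in the CpG-poor windows, an order that held in HoxA and HoxC and not in HoxB or HoxD. Windows with 1 to 4 covered CpG cytosines had mean levels of 40.7% in MEF, 48.6% in Gjb2 35delG ESC and 29.01% in Actin-RFP ESC in the clusters. With 5 to 9 cytosines the levels were 31.3%, 37.05% and 23.1%, with 10 to 19 they were 20.6%, 24.3% and 14.8%, and with 20 or more they were 10.5%, 9.51% and 6.44%. Gjb2 35delG ESC minus MEF thus went from 7.96 points in the first class through 5.74 and 3.76 to -0.985 in the last. Over the 4 classes the difference was 15.2, 4.22, 2.18 and -1.18 points in HoxA and 16.1, 11.3, 7.57 and 0.759 in HoxC. It was 1.58, 2.05, 2.71 and -0.924 points in HoxB, largest at 10 to 19 cytosines, and 4.32, 7.67, 3.73 and -2.11 in HoxD, largest at 5 to 9. In the flanks the same difference was -8.66, -5.12, -4.55 and 0.0297 points, and in the genome -11.4, -11.6, -12.1 and -8.24. The clusters remained below the flanks within each class: at 1 to 4 cytosines the flanks stood at 71.5%, 62.9% and 37.2%, and at 10 to 19 at 52.3%, 47.8% and 28%. In the class of 20 or more, which held 212 cluster and 57 flank windows, the flanks stood at 14.8%, 14.8% and 9.07%. A window was classed by its count in the library with the most covered cytosines. A covered cytosine needed at least 5 calls and both strands count, so the classes also follow depth. In RefSeq promoter windows, 86.4% of those with 1 to 4 CpG sites had a value in all 3 libraries, against 44.5% of those with 25 or more. The most CpG-rich parts of the clusters are therefore under-represented in each mean. The loss was not equal between libraries. At 25 or more CpG sites, 18.6% of cytosines were covered in MEF, 19% in Gjb2 35delG ESC and 37.5% in Actin-RFP ESC. Actin-RFP ESC levels thus include more cytosines of CpG-dense windows, and its differences from the other libraries were not corrected for this. Means over windows with equal counts of covered cytosines are in the closing section.

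**Figure D2:**
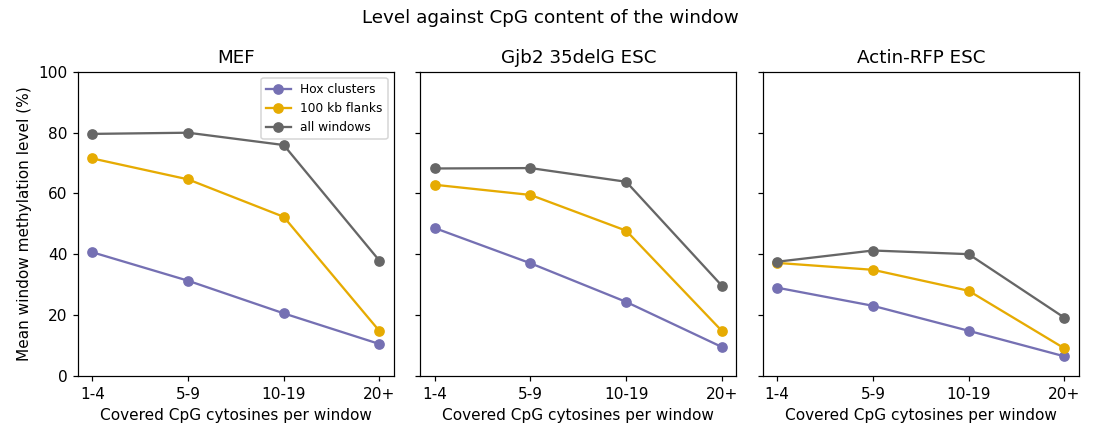
Mean window methylation level (vertical axis, percent) by number of covered CpG cytosines in the window (horizontal axis), 1 panel per library, for the Hox clusters, the 100 kb flanks and all shared windows. Each window is classed by its count in the library with the most covered cytosines. The cluster line lies lowest in every class and library, for example at 40.7% against 71.5% in the flanks for windows of 1 to 4 cytosines in MEF.

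The low level of MEF did not stop at the 5′ edge of the clusters. In the first 10 kb beyond the 5′ edges, on the side of paralogue 13, the 152 windows of the 4 flanks had means of 13.6% in MEF, 35.9% in Gjb2 35delG ESC and 21.5% in Actin-RFP ESC. In the first 10 kb beyond the 3′ edges the 142 windows had 65.3%, 50.5% and 29.5%. The 5′ side was lowest in MEF next to HoxC, with 8.17%, 43.3% and 26.6% in the 3 libraries. Next to HoxA it was 15.01%, 40.5% and 24.5%, next to HoxB 17.9%, 38.3% and 24.8% and next to HoxD 12.7%, 22.98% and 11.6%. From 10 to 25 kb beyond the 5′ edge, HoxB stayed at 12.4% in MEF, against 46.02% in Gjb2 35delG ESC and 21.4% in Actin-RFP ESC. HoxD had 27.2%, 49.6% and 27.5% there. HoxA and HoxC had 59.04% and 56.7% in MEF at that distance. From 25 to 50 kb the 4 flanks together reached 72.8%, 65.5% and 38.7%, with MEF again the highest. The 100 kb 5′ flank of HoxA holds Hottip and Evx1, that of HoxB Calcoco2 and Ttll6, and that of HoxD Evx2 and Lnpk. Hottip (chromosome 6, 52262775 to 52267603) lies in the first 10 kb. Whether the other genes lie inside the low stretch was not examined. Evx1 and Evx2 are even-skipped homeobox genes that lie next to Hox clusters. Their promoters were low in the 3 libraries, at 9.18%, 10.3% and 5.23% for Evx1 and 6.63%, 13.4% and 5.53% for Evx2. Flanks of 50 kb put more weight on this 5′ stretch, and the distance between cluster and flanks in MEF was then 29.4 points instead of 36.5.

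**Figure D3:**
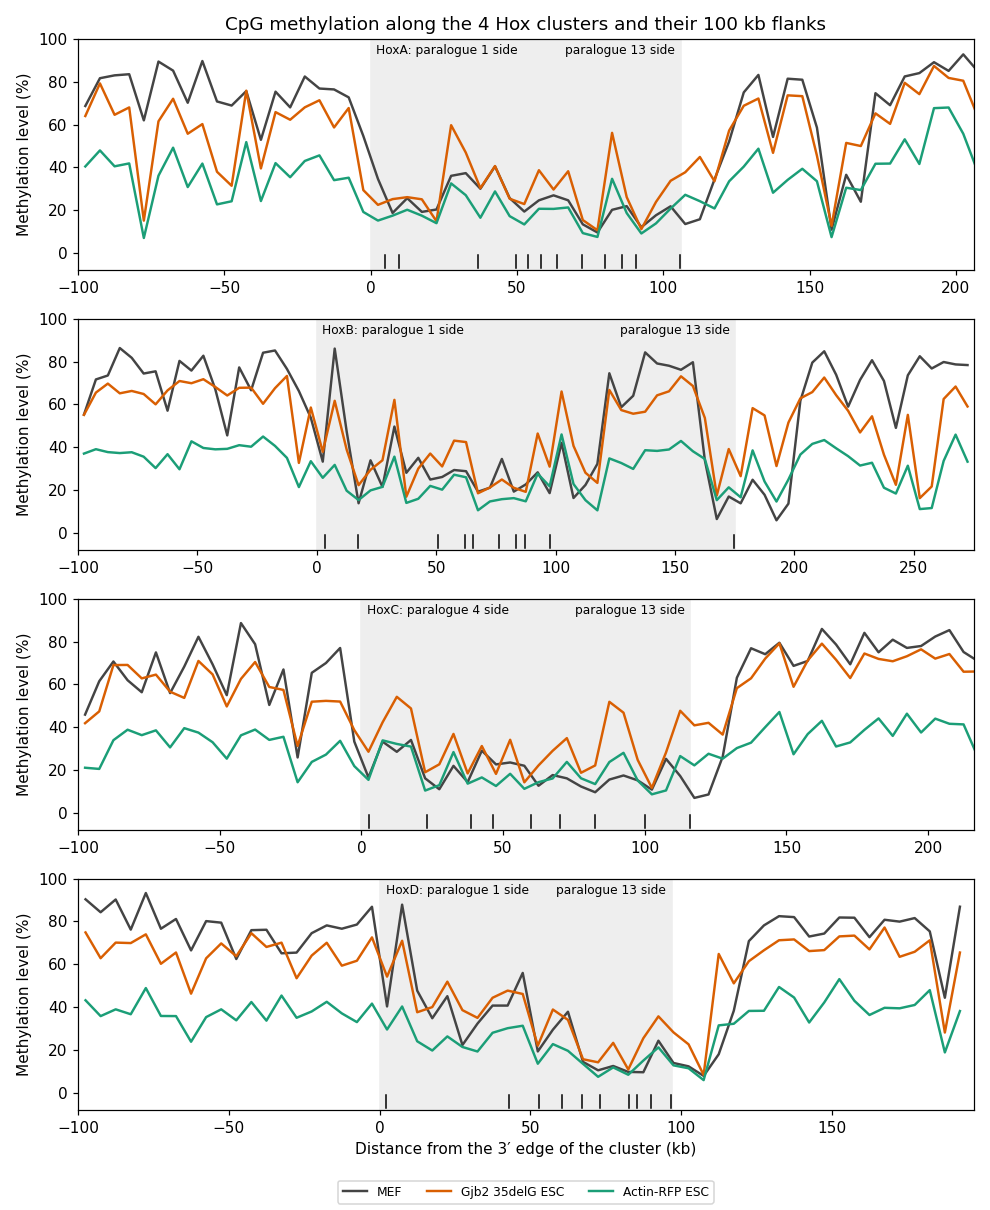
Mean methylation level (vertical axis, percent) in steps of 5 kb against distance from the 3′ edge of each cluster (horizontal axis, kb), with the cluster shaded, the 100 kb flanks on either side and ticks at Hox gene starts. The MEF line is lower inside each shaded cluster than in most of its flanks, runs on at a low level past the 5′ edge and rises in the HoxB space between Hoxb9 and Hoxb13.

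Inside the clusters, levels were described in 51 bins of 10 kb counted from the 3′ edge. Actin-RFP ESC lay below Gjb2 35delG ESC in all 51 bins, and Gjb2 35delG ESC lay above MEF in 35 of them. By cluster, that order held in 9 of 11 bins of HoxA, 9 of 18 of HoxB, 11 of 12 of HoxC and 6 of 10 of HoxD. Actin-RFP ESC lay above MEF in 13 of the 51 bins, among them 7 of the 12 of HoxC. In HoxD the MEF level fell unevenly from the 3′ to the 5′ side. The first HoxD bin, with the start of Hoxd1, an anterior paralogue, had 64.8% in MEF, 62.9% in Gjb2 35delG ESC and 35.1% in Actin-RFP ESC. The Hoxd1 promoter itself, described below, had 10.8% in MEF. The bins from 10 to 40 kb had 39.8%, 30.8% and 36.6% in MEF. The bin at 40 to 50 kb, with Hoxd4, had 48.3%, 46.9% and 30.7% in the 3 libraries. The bin at 80 to 90 kb, with the posterior genes Hoxd11 and Hoxd12, had 9.65%, 18.98% and 12.1%. The last bin, with Hoxd13, was higher again in MEF, at 19.95%. The Spearman correlation of level with distance from the 3′ edge over the 371 HoxD windows was -0.489 in MEF, -0.399 in Gjb2 35delG ESC and -0.346 in Actin-RFP ESC. In MEF it was -0.238 in HoxA, -0.166 in HoxC and 0.109 in HoxB. Neighbouring windows share CpG content and reads, so these values are descriptions. In HoxA the bin at 70 to 80 kb, with Hoxa9 and a start of Hoxa10, had 11.5%, 13.1% and 8.42%, and its neighbour at 80 to 90 kb had 20.98%, 41.8% and 27.03%. HoxC had its widest gaps at 110 to 120 kb, with Hoxc13, at 15.8%, 43.2% and 24.2%, and at 80 to 90 kb, with Hoxc11, at 12.4%, 35.9% and 18.2%.

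In HoxB the highest bins lay in the long space between Hoxb13 and Hoxb9, chromosome 11, 96196611 to 96271329, which holds no Hox gene. Its 274 windows had mean levels of 50.9% in MEF, 51.1% in Gjb2 35delG ESC and 30.4% in Actin-RFP ESC. Within it, the 4 bins from 120 to 160 kb, reached 65.3, 75.01, 78.6 and 77.9% in MEF, and 33.5 to 40.6% in Actin-RFP ESC. The last 15 kb before the 5′ edge were low again in MEF, at 19.6% and 17%, with Gjb2 35delG ESC at 34.7% and 39.2%. Without this space the other 360 HoxB windows had 31.7%, 34.6% and 21.3%. Counted from the first to the last Hox gene of each cluster without this space, the windows at least 30 points lower in Actin-RFP ESC than in MEF numbered 152 instead of 266. The first HoxB bin, with Hoxb1, was also high in MEF, at 62.6%, 51.1% and 29.1%.

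Levels were lowest at the Hox gene starts. Within 500 bp of a start the 141 windows had means of 11.1% in MEF, 12.4% in Gjb2 35delG ESC and 8.97% in Actin-RFP ESC. From 500 to 1000 bp they were 17.3%, 22.7% and 15.2%, from 1000 to 2000 bp 20.8%, 27.8% and 16.4%, from 2000 to 5000 bp 29.9%, 37.7% and 23.5%, and beyond 5000 bp 40.3%, 43.5% and 25.7%. The gap between Gjb2 35delG ESC and MEF was 1.29 points within 500 bp and 7.88 points at 2000 to 5000 bp. In HoxC it was -2.14 points within 500 bp and 15.4 points beyond 5000 bp. Windows inside the extent of a Hox gene had 24.6%, 30.98% and 19.3%, and those between Hox genes had 36.6%, 40.5% and 24.1%.

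Most Hox promoters were weakly methylated in the 3 libraries. A promoter was taken from 1000 bp before to 500 bp after a gene start and needed 3 shared windows, which 38 starts of 36 genes out of 41 starts of 39 genes had. Hoxb2, Hoxb7 and Hoxc8 did not reach 3 windows. The median promoter level was 13% in MEF, 13.9% in Gjb2 35delG ESC and 11.5% in Actin-RFP ESC, against 51.8%, 41.3% and 21.4% over the 30102 RefSeq starts treated alike. Levels under 30% were measured at 34 of the 38 starts in MEF, 32 in Gjb2 35delG ESC and 36 in Actin-RFP ESC. Levels under 10% were measured at 15 starts (39.5%) in MEF, 15 (39.5%) in Gjb2 35delG ESC and 18 (47.4%) in Actin-RFP ESC. Over all RefSeq starts 14.2%, 21.8% and 31.4% were under 10%, and the share under 30% was not computed. The order of the MEF and Gjb2 35delG ESC medians depended on the width: with 500 bp on either side of the start they were 9.304% and 7.099% (29 starts), and with 2000 bp before to 1000 bp after 14.9% and 23.8% (41 starts). The 18 starts of the posterior paralogues 9 to 13 had medians of 8.96%, 12.7% and 12.1%. The 11 starts of paralogues 1 to 4 had 15.3%, 21.3% and 12.4%, and the 9 starts of paralogues 5 to 8 had 14.3%, 12.4% and 8.44%. These groups follow paralogue number and not position along the cluster. The starts used for Hoxa3, Hoxb3 and Hoxd3 lay 58.07, 61.9 and 53.01 kb from the 3′ edge. They were thus 5′ of the starts of Hoxa5 and Hoxa6, of Hoxb4 and of Hoxd4, respectively.

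Hoxb3, an anterior gene of the hindbrain, was the 1 promoter of 38 past 30 points in any pair of libraries at this promoter width. Its start is not in the promoter table and was taken from the end of the RefSeq gene extent, which lies upstream of Hoxb4 and next to Hoxb5. The level there was 30.5% in MEF, 72.1% in Gjb2 35delG ESC and 35.3% in Actin-RFP ESC, from 236, 179 and 338 calls in 5 windows. It was 41.6 points higher in Gjb2 35delG ESC than in MEF, where 0.914% of all RefSeq starts passed that size, and 36.8 points lower in Actin-RFP ESC than in Gjb2 35delG ESC, where 21.8% did. With 500 bp on either side of the start the first difference was 42.6 points, and with 2000 bp before to 1000 bp after it was 18.8 points. No Hox promoter was 30 points lower in Gjb2 35delG ESC than in MEF, where 6% of all RefSeq starts were, or 30 points lower in Actin-RFP ESC than in MEF, where 41.7% were. In MEF, however, 34 of the 38 Hox starts lay under 30% and could not fall by 30 points. The RefSeq starts had a median of 51.8% in MEF, so the shares are not alike in room to fall. No Hox promoter was 30 points higher in Actin-RFP ESC than in MEF or in Gjb2 35delG ESC, where 0.0399% and 0.00332% of all RefSeq starts were. The other starts 20 points or more higher in Gjb2 35delG ESC than in MEF were those of Hoxd1, Hoxd4 and Hoxd12. Hoxd1, the anterior end of HoxD, stood at 10.8%, 37.3% and 18.9% in MEF, Gjb2 35delG ESC and Actin-RFP ESC. Hoxd4 stood at 33.9%, 58.4% and 42.6% and was the highest promoter of HoxD in each library. For Hoxd4 the difference between Gjb2 35delG ESC and MEF was 24.5 points, and with 500 bp on either side of the start it was 38.9 points, past 30, and with the wider window 15.3. Hoxd12, a gene of the distal limb, stood at 9.98%, 31% and 12.5%. For Hoxd1 the wider window gave 20.6 points. The narrower one held 2 shared windows, fewer than the 3 required, at 15.95%, 10% and 2.46%, with MEF the highest. Upstream of the Hoxd1 start, 3 neighbouring windows (chr2:74761801-74762400) had 4.95%, 57.4% and 30.1%.

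The extremes of the other clusters were as follows. In HoxA, Hoxa7 was the highest promoter in each library, at 42.1%, 38.2% and 28.2%, and the lowest were Hoxa4 in MEF at 7.82% and Hoxa11 in the ESC libraries at 1.299% and 4.96%. In HoxB, Hoxb8 was the highest in MEF at 30.7% and Hoxb3 in the ESC libraries. The lowest were Hoxb13, a posterior gene of prostate and hindgut, at 8.097% in MEF and Hoxb5 at 9.59% and 6.33% in the ESC libraries. In HoxC, Hoxc10 was the highest in MEF and Gjb2 35delG ESC, at 19.9% and 28.3%, and Hoxc4 in Actin-RFP ESC at 16.9%. Hoxc13, which acts in hair and nail, was the lowest of HoxC in each library, at 5.96%, 3.07% and 1.45%. In HoxD the lowest were the first start of Hoxd11 in MEF at 3.11% and Hoxd3 in the ESC libraries at 1.03% and 2.64%. Hoxd8 went the other way from Hoxd1, at 23.8%, 8.802% and 9.16%, a difference below 30 points. This gap depended on the width: with 2000 bp before to 1000 bp after, Hoxd8 had 34.5%, 32.1% and 17.6%. With 500 bp on either side it had 4.95%, 4.57% and 7.43%, from 2 shared windows. Each level rests on 1 library, so differences of a few points between promoters cannot be ordered.

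**Figure D4:**
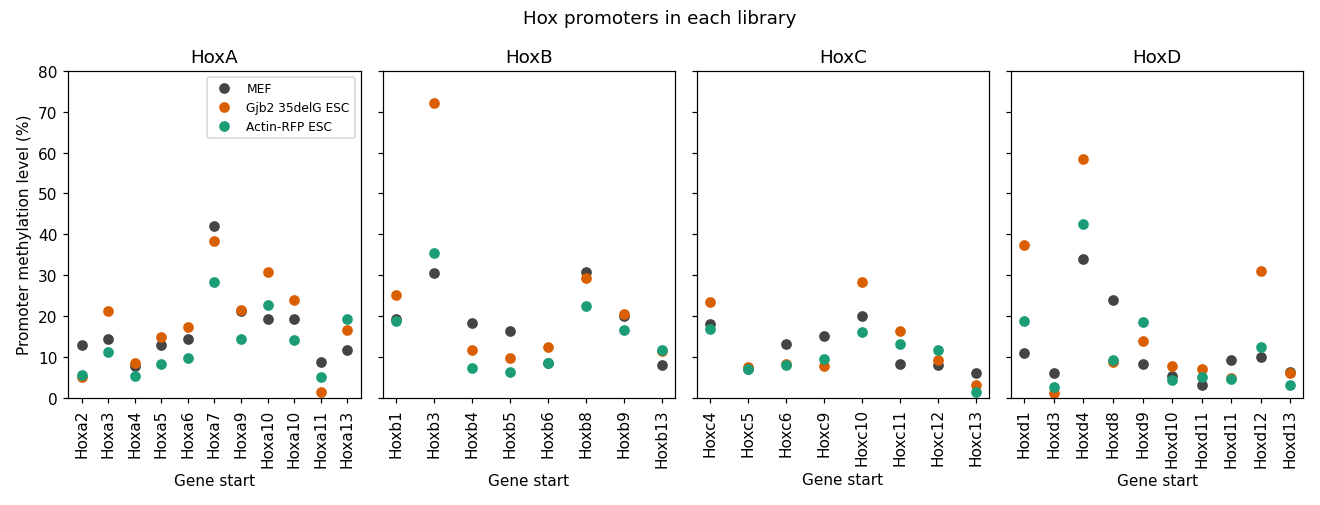
Promoter methylation level (vertical axis, percent) at Hox gene starts with at least 3 shared windows (horizontal axis, Hox genes by paralogue number), 1 panel per cluster and 1 point per library. Most points lie under 30%, and the Gjb2 35delG ESC points of Hoxb3 (72.1%) and Hoxd4 (58.4%) stand highest.

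In the clusters, 11 stretches of at least 5 neighbouring windows, 64 windows in all, were under 10% in each library. HoxA held 2, HoxB 4, HoxC 2 and HoxD 3. Of these, 6 covered a gene start. These were at Hoxa5 (chr6:52203601-52205000, 4.66%, 3.44% and 3.72%), Hoxb5 (chr11:96303001-96304200, 4.55%, 4.51% and 3.74%), Hoxc12 (chr15:102936801-102937800, 4.84%, 4.64% and 3.66%), Hoxc5 (chr15:103013801-103014800, 4.65%, 2.86% and 3.82%), the first start of Hoxd11 (chr2:74679001-74680400, 3.001%, 3.54% and 3.95%) and Hoxd10 (chr2:74691001-74692200, 4.68%, 4.44% and 4.104%). The longest, 8 windows at chr11:96202801-96204400, lay in the space between Hoxb13 and Hoxb9 and overlapped no Hox gene, at 4.15%, 3.61% and 3.49%. Another 3 lay inside Hoxb7, Hoxb2 and Hoxd9, and 1 lay between Hoxa7 and Hoxa9. No stretch of that length was above 60% in all 3 libraries. Such stretches were counted in the clusters only, without a count for the flanks or the genome.

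Stretches of at least 3 neighbouring windows where Gjb2 35delG ESC was 30 points or more above MEF numbered 21, with 79 windows. HoxA held 5, HoxB 5, HoxC 7 and HoxD 4. The longest, 7 windows over the start of Hoxd4 (chr2:74721601-74723000), had 25.9% in MEF, 67.5% in Gjb2 35delG ESC and 43.4% in Actin-RFP ESC. A stretch of 6 windows inside Hoxa10 (chr6:52237401-52238600) had 17.5%, 69.8% and 41.3%. Another of 6 windows in the space before Hoxb13 (chr11:96204801-96206000) lay beside the long unmethylated stretch there and had 14.8%, 57.4% and 36.5%. The 3 windows within Hotair (chr15:102945201-102945800) had 12.5%, 84.8% and 44.6%, from 171, 234 and 372 calls. In each of these 4 stretches Actin-RFP ESC lay between the other libraries. In the opposite direction there were 3 stretches with 10 windows, all in HoxB. The longest, 4 windows between Hoxb2 and Hoxb1 (chr11:96360401-96361200), had 89.6%, 45.3% and 18.9%. Neither kind of stretch was counted in the flanks or the genome, so these numbers have no background. In the clusters 88.3% of windows had room to rise by 30 points from MEF and 39.3% had room to fall. In the flanks these shares were 40.5% and 83.1%.

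The single windows with the largest differences, 2 per cluster for each pair of libraries, rested on few calls. Between Gjb2 35delG ESC and MEF the 8 windows differed by 66.7 to 77.6 points, 7 of them higher in Gjb2 35delG ESC, and 7 of the 8 had fewer than 20 calls in at least 1 library. The exception was a window within Hotair, chr15:102945601-102945800, at 8.76% of 56 calls in MEF, 86.3% of 70 in Gjb2 35delG ESC and 31.8% of 116 in Actin-RFP ESC. Between Actin-RFP ESC and MEF the 8 windows were lower by 53.9 to 83.3 points, and 3 had fewer than 20 calls. One with at least 35 calls in each library was chr11:96360601-96360800, near Hoxb1, at 92.5%, 26.9% and 9.24%, from 40, 35 and 79 calls. Between the ESC libraries the 8 windows were lower in Actin-RFP ESC by 61.6 to 85.6 points, and all 8 had fewer than 20 calls in at least 1 library.

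Among the noncoding RNAs, Hotair, which is made from HoxC between Hoxc11 and Hoxc12, differed most between Gjb2 35delG ESC and MEF. Its 11 windows had 24.1% in MEF, 60.4% in Gjb2 35delG ESC and 32.2% in Actin-RFP ESC. Hottip, which lies just outside the HoxA cluster and is known as a regulator of posterior HoxA genes, had 12.1%, 44.3% and 24.8% over 22 windows. Hotairm1 in HoxA had 11.1%, 23.5% and 17.4%. In all 3, MEF was the lowest and Gjb2 35delG ESC the highest. The microRNA genes, read with 1000 bp on either side, differed within families. Of the genes with the miR-196 seed printed above, Mir196a-1 in HoxB had 39.4%, 63.4% and 46.4% and Mir196a-2 in HoxC had 17.03%, 35.5% and 20.3%. Mir196b in HoxA had 13.7%, 9.24% and 6.62%, with MEF the highest. Of the genes with the miR-10 seed, Mir10b inside the extent of Hoxd4 had 51.3%, 54.8% and 35.6% and Mir10a in HoxB had 30.3%, 27.5% and 15.7%. Mir615, inside Hoxc5, was low throughout at 9.46%, 5.14% and 3.37%.

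Related genes outside the clusters were read in the same promoter windows, with levels given in the order MEF, Gjb2 35delG ESC and Actin-RFP ESC. Of 35 other developmental homeobox and related genes that Polycomb is known to bind, 19 had a value, with medians of 8.65%, 8.75% and 7.32%.  Of the 19, 1 was 30 points higher in Gjb2 35delG ESC than in MEF, against 0.914% of all RefSeq starts: Lhx9, a LIM homeobox gene of gonad and limb, at 15.3%, 76.3% and 22.6%. Of the 6 ParaHox genes, the sister group of the Hox genes, 5 had a value and none passed 30 points. Pdx1, which acts in pancreas, had 5.06%, 28.97% and 18.1%, and Cdx2, a regulator of posterior Hox genes and of trophectoderm, had 5.05%, 13.9% and 8.79%. Gjb2 35delG ESC lay above MEF in 4 of the 5 and below it in Cdx4, at 34.5%, 22.1% and 11.98%. Gsx2 had 18.6%, 30.9% and 7.25%, with Actin-RFP ESC below MEF. Of 16 Polycomb and Trithorax genes that regulate Hox clusters, 12 had a value, with medians of 8.58%, 3.06% and 3.95%. Of these, 1 was 30 points lower in Actin-RFP ESC than in MEF, against 41.7% of all RefSeq starts: Ezh1, at 40.8%, 21.2% and 9.64%. Only Ezh1 and Rnf2, at 33.3%, 19.3% and 12.6%, stood at 30% or more in MEF. The rest of the 12 could not fall by 30 points, so their count cannot be set against the share of all starts. Of 9 Hox cofactor genes, 3 had a value. Meis1, whose protein binds DNA with Hox proteins, had 5.81%, 6.65% and 3.29%. Pbx2 had 12.4%, 10.8% and 6.4%, and Pbx4 had 28.8%, 19.5% and 4.24%, with MEF the highest in both.

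The Hox genes described from single cells had reads in at most 4 cells of a group. The cells came from reconstructed blastocysts at E4.0 and were labelled by a transgene, Actin-GFP in one group and Actin-RFP in the other. Of the 39 Hox genes, 12 stood in the deposited table of 13927 genes, and values are given for 11 of them, so nothing is said of Hox reads as a whole. The other 27 were not analysed here. The table holds 40 cells labelled GFP and 55 labelled RFP, with a median per cell of 5607157 reads in the first group and 5584451 in the second. The labels give no embryo for any cell, each group therefore counts as 1 sample, and no test was made. These genes had a read in 1 to 4 GFP cells and 0 to 3 RFP cells, and 5 of them had none in any RFP cell, which allows up to 0.00964 CPM, a read count scaled to the depth of the group (3 reads over all its cells). Hoxa7 had reads in 2 cells of each group and reached 133 CPM in the highest GFP cell. Hoxc13 had reads in 2 GFP and 3 RFP cells. Within a cell, 80.3 to 96.1% of the nonzero counts were even numbers, so reads may not be independent of each other, and the CPM limit covers counting error only.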

How the data were processed

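DNA of 3 cell cultures was sequenced after bisulfite treatment of single-stranded fragments with the Accel-NGS Methyl-Seq kit, per the labels and series design. Each file the authors deposited gives, for tiles of 200 bp of mm10 (per the submitters' processing notes), the methylation level as a fraction averaged over covered CpG cytosines and the count of methylated calls, of unmethylated calls and of covered cytosines. The last was read as cytosines on both strands after a check against RefSeq promoter sequences. For the bisulfite reads, no aligner or caller is given in the sources used here. The deposited single-cell table holds a signal per gene and cell whose making is not stated. Divided by the smallest nonzero value of the cell, all values came out whole within 0.01, and these whole numbers are called reads; the depth they give rests on that step. With 1 library per kind no test was made: means, SDs over windows, a fixed difference of 30 points and 95% Wilson intervals on pooled calls were computed with Python 3.11.15, pandas 2.3.3 and numpy 2.4.6. The functions were tested on simulated windows. Starts came from the RefSeq promoter table for 22 genes and from the gene ends for 17. The values of 1 Hox gene are not reported here. Exons and introns were not used; gene extents took their place. Named promoters and windows follow a rule: the highest and lowest promoter of each cluster in each library, promoters with 30 points between libraries, the largest window differences with at most 2 a cluster, and long low or high stretches. Hoxd1, Hoxd8, Hoxd12, the stretches between libraries and the bins were chosen after their values were seen. The clusters, lists and rule were chosen with earlier results of these data known. Alternatives for coverage, CpG content, extent, threshold, flank and promoter width are given in the closing section.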

Additional observations from a re-analysis of the deposited data

How the results depend on the processing

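No paired analysis was possible because each kind of cell had 1 bisulfite library, so no replicate could be left out either. Levels follow the order MEF, Gjb2 35delG ESC, Actin-RFP ESC. Among the 3 cluster means, Gjb2 35delG ESC was highest and Actin-RFP ESC lowest under each alternative below. The means were 27.5%, 32.1% and 19.5% with at least 20 calls in each library, 32.4%, 38.5% and 23.3% with fewer than 10 CpGs (taken as under 20 covered cytosines), 25.97%, 32.1% and 19.7% from the first to the last Hox gene without the Hoxb9 to Hoxb13 space, 23.7%, 27.6% and 15.4% over all calls, and 28.9%, 34.6% and 20.6% with every window of that library. In the 570 windows with an equal number of covered cytosines in the 3 libraries, an alternative added after seeing the data, they were 40.96%, 47.9% and 28.5%. Over all calls, HoxA had 18.3%, 22.2% and 12.3%, HoxB 32.7%, 33.8% and 19.6%, HoxC 15.1%, 23.1% and 13.3% and HoxD 26.1%, 29.2% and 15.3%. Cluster minus flank was -29.4, -22.1 and -12.1 points with 50 kb flanks, and -35.01, -21.6 and -12.1 with fewer than 10 CpGs. Promoter medians were 9.304%, 7.099% and 5.62% with 500 bp on either side of the start (29 starts) and 14.9%, 23.8% and 15.1% with 2000 bp before to 1000 bp after (41 starts), so MEF was above Gjb2 35delG ESC in the narrow window and below it in the others. With at least 20 calls, the windows lower in Gjb2 35delG ESC than MEF numbered 40, lower in Actin-RFP ESC than MEF 150, lower in Actin-RFP ESC than Gjb2 35delG ESC 170, and higher in Gjb2 35delG ESC than MEF 138. In the same order of comparisons the counts were 170, 429, 581 and 424 at 20 points, and 28, 159, 120 and 125 at 40 points. With equal cytosines they were 36, 132, 141 and 95. Without the Hoxb9 to Hoxb13 space the second was 152. Under each of these, windows higher in Gjb2 35delG ESC than MEF outnumbered the lower ones. The alternatives for the higher windows were chosen after seeing the data. With 1 library per kind the spread between cultures was not measured, and intervals on calls leave it out.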
